A study of Mus musculus with 6 samples.

Results

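The collagen chains of the mouse were followed here in single cells of the heart. All gene symbols formed from Col, a number, the letter a and a second number were taken, and those with at least 20 UMIs (unique molecular identifiers, 1 for each captured transcript) over all barcodes were kept. This gave 33 chains of 44 such symbols among 31055 genes. The least abundant chain inside the limit was Col26a1 with 24 UMIs, and the most abundant outside it was Col9a2 with 17 UMIs. The chains were sorted by collagen type into 8 fibrillar chains, 6 type IV chains of basement membranes, 2 multiplexins (types XV and XVIII), 5 type VI chains, 2 type VIII chains, 5 fibril-associated (FACIT) chains, 3 transmembrane chains and 2 others.

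Hearts came from C57BL/6 mice aged 3-6 months that all carried Wt1CreERT2, a tamoxifen-dependent Cre recombinase expressed from the Wt1 gene, and the Rosa26mTmG reporter, which turns on membrane EGFP after Cre has acted. Of the 6 libraries, 3 were from control mice (Wt1CreERT2:Rosa26mTmG) and 3, called Dsp_het, from mice that in addition carried 1 conditional Dsp allele (DspW/F). Dsp encodes desmoplakin, which links desmosomes to intermediate filaments, and the series addresses a mouse model of arrhythmogenic cardiomyopathy. Myocytes were removed after collagenase digestion, EGFP+ cells were sorted, and 10x Chromium libraries were sequenced on a NovaSeq6000. Recombination is limited to cells with an active Wt1 gene and their progeny. The labels do not say whether a library is 1 animal or a pool, so every p-value measures only the spread between these libraries.

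Collagens are trimeric proteins of the extracellular matrix. Fibrillar collagens I, III and V form the tensile fibres between heart cells, and cardiac fibroblasts are known as their main source. Type IV chains polymerise into the sheet-like network of basement membranes under endothelium and around myocytes. Type VI chains form beaded microfilaments next to that sheet, multiplexins tie it to the neighbouring fibrils, and FACIT chains coat fibril surfaces.

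In genomic position, 3 pairs of type IV genes lie head to head in the GENCODE vM21 annotation of GRCm38. Col4a1 (minus strand) and Col4a2 (plus strand) on chromosome 8 begin at 11312826 and 11312805, so that their first exons share 22 bases. Col4a4 and Col4a3 on chromosome 1 begin 126 bases apart, and Col4a6 and Col4a5 on chromosome X have 1308 bases between their starts. Whether the counting used strand is not given in the sources used here, so reads from the shared bases of Col4a1 and Col4a2 could not be assigned to either gene with certainty. Upstream sequences from RefSeq (GRCm38.p6) were found for 26 of the 33 chains. The 5 printed here belong to chains that stood out in different cell classes in the counts that follow. They are Col3a1 and Col6a2 (highest in fibroblast-like cells), Col18a1 and Col4a6 (highest in epicardial-like cells) and Col13a1 (highest in endothelial-like cells). Each is given from 5′ to 3′ on the gene's own strand and holds the bases upstream of the gene's annotated span. They lie at chr1:45311288-45311537 on the plus strand, and at chr10:76623631-76623880, chr10:77166549-77166780, chrX:141474096-141474326 and chr10:61979207-61979358 on the minus strand. Capitals mark the TATA box letters TATAAA, the CCAAT box letters CCAAT and the GC box letters GGGCGG, found on either strand.
Col3a1: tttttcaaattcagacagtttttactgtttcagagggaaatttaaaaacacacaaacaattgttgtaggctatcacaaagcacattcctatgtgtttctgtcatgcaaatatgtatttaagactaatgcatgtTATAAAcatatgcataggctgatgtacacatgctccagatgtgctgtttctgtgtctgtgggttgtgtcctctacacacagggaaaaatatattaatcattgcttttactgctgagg
Col6a2: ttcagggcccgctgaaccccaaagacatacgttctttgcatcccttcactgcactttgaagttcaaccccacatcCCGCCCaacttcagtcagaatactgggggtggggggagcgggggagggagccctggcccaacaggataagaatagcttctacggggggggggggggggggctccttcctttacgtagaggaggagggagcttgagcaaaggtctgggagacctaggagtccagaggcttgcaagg
Col18a1: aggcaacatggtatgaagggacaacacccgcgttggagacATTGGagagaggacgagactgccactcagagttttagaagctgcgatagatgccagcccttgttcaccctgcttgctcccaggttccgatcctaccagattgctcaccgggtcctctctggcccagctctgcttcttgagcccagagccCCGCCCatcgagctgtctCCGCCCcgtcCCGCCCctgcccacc
Col4a6: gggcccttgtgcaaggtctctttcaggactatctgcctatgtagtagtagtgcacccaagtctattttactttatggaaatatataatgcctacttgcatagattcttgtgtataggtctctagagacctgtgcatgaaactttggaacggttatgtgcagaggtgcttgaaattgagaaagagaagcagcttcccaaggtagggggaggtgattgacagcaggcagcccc
Col13a1: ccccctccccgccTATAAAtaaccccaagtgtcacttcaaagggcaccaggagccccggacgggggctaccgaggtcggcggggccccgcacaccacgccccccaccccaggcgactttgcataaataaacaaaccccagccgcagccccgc
A TATAAA match stood in the Col3a1 and Col13a1 windows, which were the only 2 of the family's 28 windows of 250 bases that held one (some genes have more than 1 start), against 12.4% of 32851 windows of all genes. Col18a1 held 3 GGGCGG matches and 1 CCAAT match, Col6a2 held 1 GGGCGG match, and Col4a6 held none of the 3 motifs in the 231 bases shown. The full Col4a6 window of 250 bases did hold GGGCGG and is counted in the next sentence. GGGCGG was present in 18 of the 28 collagen windows against 32.7% of all windows, and CCAAT in 9 of 28 against 33.8%. These letter matches are a description of the windows and were not tested for binding.

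The 6 libraries held 18283 barcodes, 7573157 to 17083660 UMIs each, and 12614 cells were kept with a median of 3489 to 6478 UMIs per library. Of 13183 distinct barcode sequences, 1689 occurred in several libraries and 530 in all 6. Such a barcode was kept only in the library with most of its UMIs, which set aside 27.9% of barcodes in all, 41.7% in Dsp_het library 2 and 48.9% in Dsp_het library 3. Cells were clustered without the collagen genes and named from markers: 9697 endothelial-like, 1201 fibroblast-like, 586 epicardial-like (mesothelial), 216 macrophage-like, 193 pericyte-like and 138 cardiomyocyte-like cells, 60 cycling cells and 523 cells left unnamed. The label of epicardial derived cells thus covered a sort that was 76.9% endothelial-like, with Wt1 itself at 228 to 322 CPM (UMIs of the gene, scaled to the usual common total over all UMIs of that class in the library) in epicardial-like cells and 21.2 to 30.8 CPM in endothelial-like cells. Over all kept cells Dsp had 11 to 32 UMIs per library in both groups, too few to check the genotype. In epicardial-like cells Dsp stood at 12.3, 20.9 and 17.5 CPM in control and 7.54, 7.40 and 9.70 CPM in Dsp_het. Every Dsp_het library was below every control library there, on 4 to 18 UMIs per library. GFP ranged from 2603 to 3031 CPM, and Xist marked control library 3 and Dsp_het library 2 as female. Pericyte-like cells carried the endothelial markers at 58.7% of their endothelial-like level and cardiomyocyte-like cells at 91.9%, and the values of both classes carry that limit.

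Collagen transcripts were most frequent in fibroblast-like cells and took a different make-up in each class. The 33 chains made up 1.06 ± 0.134% of UMIs in fibroblast-like cells (SD, n = 6 libraries, as for all levels below unless another n is given), 0.423 ± 0.0885% in epicardial-like cells and 0.214 ± 0.0284% in endothelial-like cells. In macrophage-like cells the share was 0.0196 ± 0.00871% (n = 5). Fibrillar chains gave most of the collagen of fibroblast-like cells (0.705% of UMIs) and of epicardial-like cells (0.323%). In endothelial-like cells the type IV chains gave 0.199% of UMIs and the fibrillar chains 0.00333%. By mean CPM, 23 of the 33 chains were highest in fibroblast-like cells, 4 in endothelial-like cells (Col4a1, Col4a2, Col13a1 and Col28a1), 4 in epicardial-like cells (Col18a1, Col16a1, Col6a5 and Col4a6), and 1 each in macrophage-like (Col9a3) and pericyte-like cells (Col25a1). The last pair and Col28a1 had 29 to 82 UMIs in kept cells of all classes. Only 2 UMIs of Col9a3 gave its macrophage-like level, and 8 UMIs of Col25a1 its pericyte-like level. For several chains the libraries of the highest and the next class overlapped, as for Col4a5 at 47.1 CPM in fibroblast-like and 46.6 CPM in epicardial-like cells. These class levels are a description without a test, since the classes came from the same cells, and UMIs are not scaled to transcript length.

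**Figure D1:**
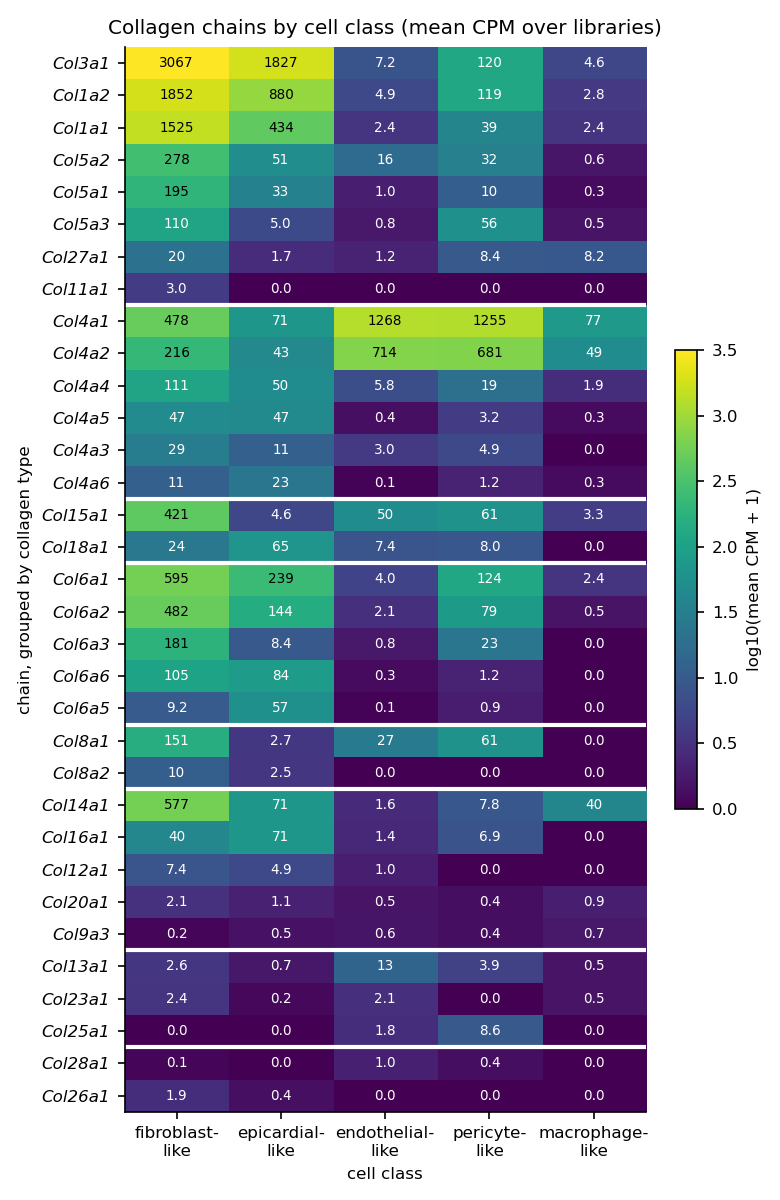
Mean CPM of the 33 chains (rows, grouped by collagen type) in 5 cell classes (columns), coloured by log10(mean CPM + 1) with the mean printed in each field, over 6 libraries (3 for pericyte-like and 5 for macrophage-like cells). Fibrillar and type VI chains are highest in the fibroblast-like column, except Col6a5, which is highest in the epicardial-like column. Col4a1 and Col4a2 reach 1268 and 714 CPM in endothelial-like cells.

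Among the fibrillar chains, Col3a1, the single chain of type III collagen, was the most frequent transcript of the family in fibroblast-like cells at 3067 ± 637 CPM. Epicardial-like cells held 1827 ± 484 CPM, and the ranges of the 2 classes overlapped (1988 to 3872 against 1404 to 2520.2 CPM). The 2 chains of type I collagen separated the classes. Col1a2 stood at 1852 ± 297 CPM in fibroblast-like and 880.3 ± 203 CPM in epicardial-like cells. Col1a1 stood at 1525 ± 228 and 434 ± 109 CPM, with the lowest fibroblast-like library at 1122 CPM and the highest epicardial-like library at 625 CPM. The balance of the chains differed between the classes. The ratio of Col1a1 to Col1a2 UMIs was 0.828 ± 0.0896 in fibroblast-like and 0.493 ± 0.0286 in epicardial-like cells, and that of Col3a1 to Col1a1 was 2.00 ± 0.256 and 4.22 ± 0.547. In neither ratio did the libraries of the 2 classes overlap.

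The type V chains, which seed and thin the fibrils, stood 5.91-fold (Col5a1) and 5.42-fold (Col5a2) higher in fibroblast-like than in epicardial-like cells, against 3.51-fold for Col1a1 and 1.68-fold for Col3a1. Col5a1 stood at 195 ± 33.4 CPM there against 33.0 ± 10.1 CPM in epicardial-like cells, and Col5a2 at 278 ± 44.7 against 51.2 ± 14.6 CPM. Col5a3 stood at 110.2 ± 35.5 CPM in fibroblast-like, 55.6 CPM in pericyte-like (n = 3) and 5.03 CPM in epicardial-like cells. In epicardial-like cells the fibroblast markers, summed, stood at 16.4% of their fibroblast-like level. Over markers the median was 7.13% and the range 0.645% to 5109%, so the list is a rough measure there. Col5a1 was near the summed value at 16.9%, as was Col5a2 at 18.5%. Col5a3 (4.56%) and Col6a3 (4.64%) were below both the summed value and the median. Col14a1 (12.2%) was below the summed value but above the median, and Col1a1 was above both at 28.5%. Col27a1 was at 19.7 CPM in fibroblast-like cells, and all 32 UMIs of Col11a1 in kept cells came from that class.

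Endothelial-like cells held little fibrillar collagen. Col3a1, Col1a2 and Col1a1 stood there at 0.234%, 0.267% and 0.157% of their fibroblast-like levels. The 16 fibroblast markers, summed, stood at 0.374%, with a median of 0.285% and a range of 0.113% to 13.2% over markers. These 3 chains were below the summed and the median level but inside the range over markers. All these percentages are averages over the class, and Col3a1 differed between its clusters, as given below. Whether the 3 chains came from carried-over RNA was not tested. Col5a2 (5.73%) and Col15a1 (11.9%) were above the summed level but inside the range over markers, and Col8a1 was above that range at 18.0%.

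**Figure D2:**
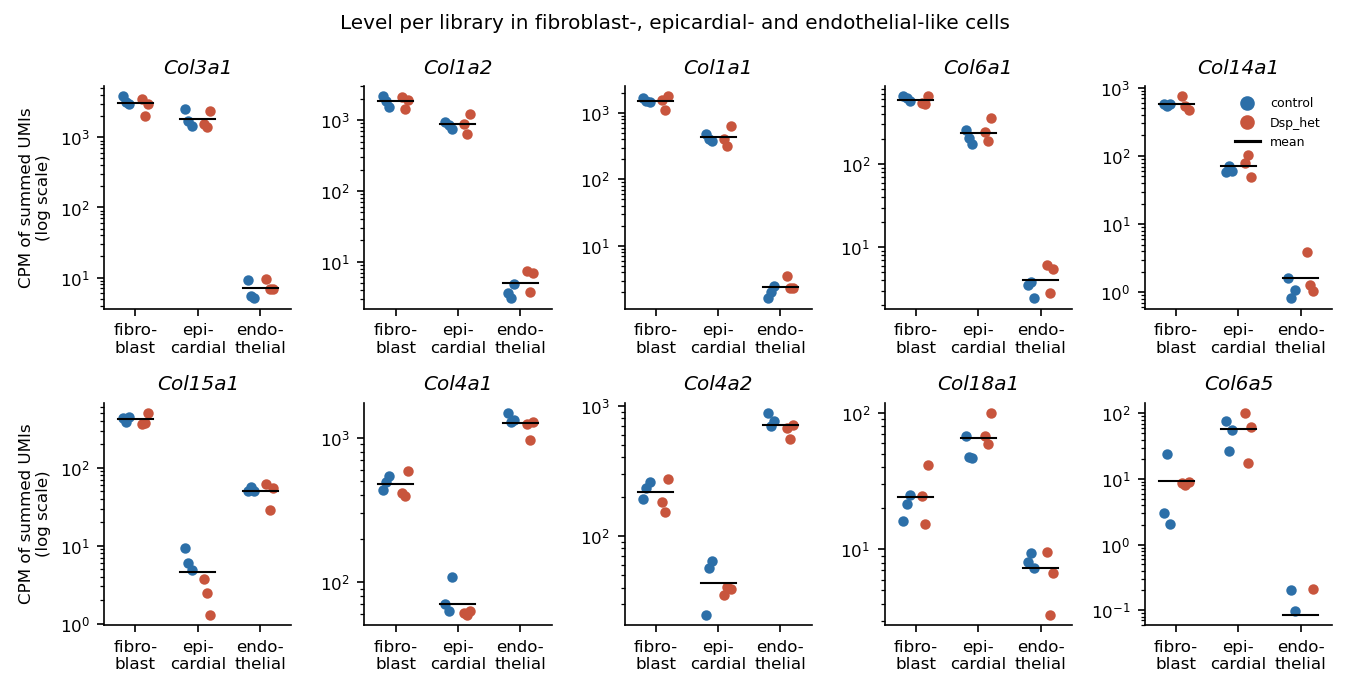
CPM (log axis) of 10 chains in the fibroblast-like, epicardial-like and endothelial-like cells of each library, blue for control and red for Dsp_het, with a line at the mean of 6 libraries; libraries at 0 cannot be drawn on this axis and are counted in the mean. Libraries of 1 class lie close together relative to the distance between classes for Col1a1, Col1a2 and Col15a1, while Col3a1 overlaps between fibroblast-like and epicardial-like cells.

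The type IV chains split into 2 patterns that followed their gene pairs in part. Col4a1 and Col4a2, whose products join in the common type IV heterotrimer, were highest in endothelial-like cells at 1268 ± 174 and 714 ± 107 CPM. Pericyte-like cells overlapped with them at 1255 ± 434 and 681 ± 219.6 CPM (n = 3), in cells that also carried endothelial markers as given above. Fibroblast-like cells held 37.7% of the endothelial-like Col4a1 level, 478 ± 77.7 CPM. The 14 endothelial markers, summed, reached 2.12% there, with a range of 1.12% to 28.7% over markers. In epicardial-like cells Col4a1 was at 5.58% of the endothelial-like level with the summed markers at 2.79% (0.919% to 42.9% over markers). In macrophage-like cells Col4a1 was at 6.10% with the summed markers at 7.30% (4.97% to 16.7% over markers), so it was below the summed level there. The ratio of Col4a1 to Col4a2 UMIs was 1.78 ± 0.0649 in endothelial-like and 2.25 ± 0.194 in fibroblast-like cells, and the libraries of the 2 classes did not overlap.

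The other 4 type IV chains, which build the α3α4α5 and α5α6 networks of specialised basement membranes such as that of the kidney, were low in endothelial-like cells as a class. Col4a4 stood at 111 ± 16.8 CPM in fibroblast-like and 49.6 ± 23.6 CPM in epicardial-like cells. Col4a3, its head-to-head partner, followed the same order at 28.7 ± 7.81 and 11 ± 6.07 CPM. Col4a5 differed between both classes by less than the spread over libraries, at 47.1 ± 5.70 and 46.6 ± 10.4 CPM. Col4a6 averaged 23.0 ± 4.89 CPM in epicardial-like cells, where fibroblast-like cells had 10.9 ± 3.87 CPM, and the lowest epicardial-like library (17.5 CPM) stood above the highest fibroblast-like one (16.2 CPM).

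The 2 multiplexins went opposite ways. Col15a1 was at 421 ± 55.1 CPM in fibroblast-like, 50.1 ± 11.3 CPM in endothelial-like and 4.599 ± 2.82 CPM in epicardial-like cells. Col18a1, the precursor of endostatin, was at 64.9 ± 19.6 CPM in epicardial-like, 24.0 ± 9.60 CPM in fibroblast-like and 7.35 ± 2.27 CPM in endothelial-like cells. No library of the highest class overlapped with the next class for either gene.

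Type VI chains also differed among themselves. Col6a1 and Col6a2, neighbours on chromosome 10, were highest in fibroblast-like cells at 595 ± 58.5 and 482 ± 48.5 CPM, followed by epicardial-like cells at 239 ± 65.4 and 144 ± 34.7 CPM. Col6a3, which joins these 2 chains in the classical trimer, was at 181 ± 15.5 CPM in fibroblast-like but 8.40 ± 7.89 CPM in epicardial-like cells. The related chains Col6a5 and Col6a6, which share the domain plan of Col6a3, were present in epicardial-like cells at 56.9 ± 31.7 and 83.5 ± 21.7 CPM. In fibroblast-like cells Col6a5 was at 9.21 ± 8.02 CPM and Col6a6 at 105 ± 27.2 CPM, and both ranges overlapped with the epicardial-like range.

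The remaining groups were led by 1 or 2 chains each. Among FACIT chains, Col14a1 stood at 577 ± 95.6 CPM in fibroblast-like and 70.6 ± 19.6 CPM in epicardial-like cells. It was also present in macrophage-like cells at 39.5 ± 15.5 CPM (n = 5), which is 6.85% of the fibroblast-like level where the fibroblast markers reached 0.503%. Col16a1 was at 71.2 ± 8.01 CPM in epicardial-like and 40.1 ± 14.4 CPM in fibroblast-like cells, with overlapping ranges. Col8a1, a short chain of hexagonal networks made by vascular cells, was at 151 ± 70.3 CPM in fibroblast-like, 61.2 ± 21.9 CPM in pericyte-like (n = 3) and 27.2 ± 6.15 CPM in endothelial-like cells. The transmembrane chain Col13a1 was at 12.5 ± 5.56 CPM in endothelial-like and 2.62 ± 0.896 CPM in fibroblast-like cells. The other members, Col8a2, Col12a1, Col20a1, Col9a3, Col23a1, Col25a1, Col28a1 and Col26a1, had means under 11 CPM in every class.

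Pericyte-like cells could be described in 3 libraries with at least 20 such cells (control 2, control 3 and Dsp_het 3). Col4a1 stood there at 984, 1027 and 1756 CPM and Col4a2 at 499.7, 619 and 925 CPM. Col6a1, Col3a1 and Col1a2 had means of 124, 120.4 and 119 CPM, and Col6a2, Col8a1, Col15a1 and Col5a3 had means of 78.6, 61.2, 60.6 and 55.6 CPM. With 1 Dsp_het library, genotype was not tested in this class.

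The chains varied within endothelial-like cells as well. Of the 11 endothelial-like clusters, the one led by Apln and Kit held the most Col4a1, 2241 CPM (1889 to 2413 over 6 libraries). The clusters led by Lars2 and Syne1 and by Btnl9 and Unc5b followed at 2179.8 and 1933 CPM, the former with the lowest median depth of the class, 1850.5 UMIs. Clusters led by interferon-response genes, by the capillary gene Car4 or by Rbp7 lay between 1279 and 1443 CPM. Rbp7 stood in the arterial marker list, and its cluster had 2 arterial and 2 capillary markers among the leading genes. The cluster led by the arterial genes Gja4 and Sema3g held 983 CPM. At the other end, the cluster led by Ccl21a and Serpina1b, with the venous gene Vwf, held 325 CPM (272 to 381), and the cluster led by Cytl1 and Plvap, with the endocardial gene Npr3, held 229 CPM (168 to 313, n = 4).

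The clusters poorest in Col4a1 carried other chains. In the Cytl1 cluster Col4a4 reached 131 CPM (106 to 168), overlapping the fibroblast-like range of 92.3 to 136 CPM, and Col4a3 reached 22.9 CPM (12.6 to 31.0). The transmembrane chain Col23a1 stood at 46.5 CPM there and at 10.9 CPM in the Ccl21a cluster. Col13a1 was highest in the Ccl21a cluster at 87.2 CPM (56.7 to 127), followed by the Rasa4 cluster at 25.3 CPM. Col5a2 was near 95.3 CPM in the Ccl21a and 93.0 CPM in the Cytl1 cluster, against 0.960 CPM in the Apln cluster. Col18a1 and Col8a1 were highest in the arterial-gene cluster at 50.6 and 183 CPM, and Col15a1 in the Apln cluster at 146 CPM (85.5 to 191). The Cytl1 cluster also held Col3a1 at 43.6 CPM (10.6 to 119) and Col6a1 at 69.9 CPM.

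**Figure D3:**
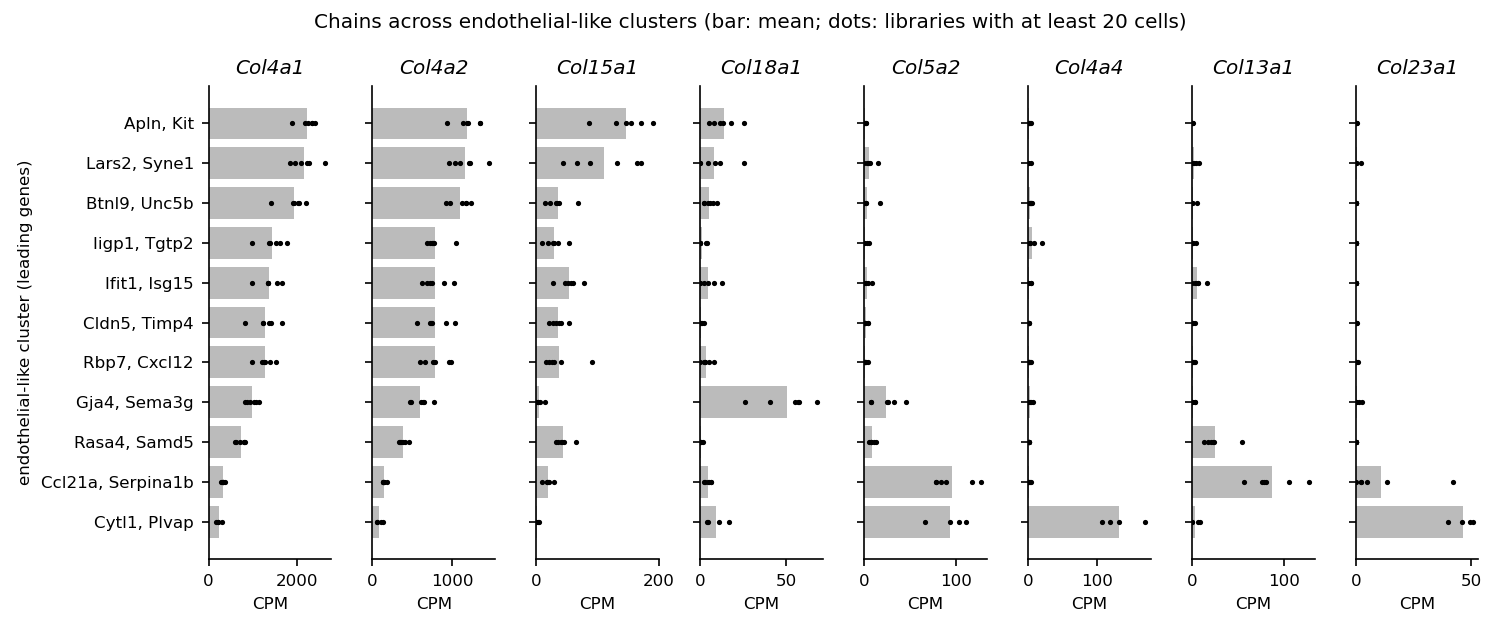
Mean CPM (bars) of 8 chains in the 11 endothelial-like clusters, named by leading genes, with dots for each library that held at least 20 cells of the cluster. Col4a1, Col4a2 and Col15a1 are highest in the Apln cluster at the top, while Col5a2 and Col13a1 stand out in the Ccl21a cluster, Col18a1 in the Gja4 cluster and Col4a4 and Col23a1 in the Cytl1 cluster.

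Fibroblast-like cells fell into a large cluster of 1136 cells led by Gsn and Lum and a small one of 65 cells led by Ccl11 and Igfbp3, of which 54 came from Dsp_het library 1. In that library Col15a1 was at 759 CPM in the small and 322 CPM in the large cluster. Col14a1 was at 910.3 and 739.7 CPM, and Col12a1, a FACIT chain of stretched tissue, at 74.4 and 5.03 CPM. In the other direction Col4a4 was at 9.01 and 109 CPM and Col8a1 at 38.3 and 88.7 CPM. Col3a1 and Col1a2 were also lower in the small cluster, at 2643 against 3592 CPM and 1854 against 2127 CPM. These are values of a single library without a test.

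The machinery that folds, trims and binds collagen was read from lists of known genes. Of 22 genes for folding and modification in the endoplasmic reticulum with at least 5 CPM in some class, 11 were highest in fibroblast-like cells. Among them were Serpinh1, the collagen chaperone HSP47, at 862 CPM against 328 CPM in endothelial-like cells, and Ppib, a prolyl isomerase, at 930.2 against 479 CPM. Sparc, a collagen-binding glycoprotein, was similar in fibroblast-like and endothelial-like cells at 2255 and 2136 CPM. Propeptide removal and crosslinking genes were highest in fibroblast-like cells in 8 of 11 cases, led by the procollagen processing enhancers Pcolce2 (937 CPM) and Pcolce (817 CPM) and the lysyl oxidase Loxl1 (498 CPM). Of 17 fibril-binding proteoglycans and glycoproteins, 13 were highest there, led by decorin (Dcn, 22702 CPM, against 6910.3 CPM in epicardial-like cells).

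Collagen receptors showed no single site. The integrin subunit Itgb1 stood at 677 CPM and Itga1, its partner in the collagen receptor, at 455 CPM in endothelial-like cells. The receptor tyrosine kinase Ddr1 was at 137 CPM in epicardial-like and Ddr2 at 97.4 CPM in fibroblast-like cells. Partners of type IV collagen in the basement membrane were shared out: Nid1 (nidogen) at 759.8 CPM and Lamc1 (laminin γ1) at 499 CPM in fibroblast-like cells, and Hspg2 (perlecan) at 466 CPM in endothelial-like cells. Of the 13 partners with at least 5 CPM in some class, 6 were highest in fibroblast-like, 5 in epicardial-like and 2 in endothelial-like cells.

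Over all kept cells, the fibrillar and type VI chains had higher sums in Dsp_het libraries 1 and 3, and Col4a1 and Col4a2 had lower sums in all 3, but no chain passed the test of genotype. UMIs were summed per library and compared with edgeR's quasi-likelihood test, with p-values adjusted by Benjamini-Hochberg over 12970 genes and a threshold of 0.05. Of 28 chains tested 0 were called, where 0% of all genes were called. Fold changes are given as log2, Dsp_het minus control. They were positive for 25 of the 28 chains, with a median of 0.95 against -0.01 over all genes, and 19 chains had an unadjusted p under 0.05, as did 1633 genes. DESeq2 called 6 chains: Col4a5, Col16a1, Col6a1 and Col6a6 higher, where it called 2.61% of genes higher, and Col4a1 and Col4a2 lower, where it called 0.285% of genes lower.

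The type I and III chains were high in Dsp_het libraries 1 and 3, while Dsp_het library 2 was close to or below the controls. Col3a1 stood at 452, 389.8 and 410.1 in control and 1433, 359 and 781 in Dsp_het libraries 1 to 3 (normalized CPM, that is CPM after TMM scaling). The fold change was 1.04 (SE 0.43, edgeR adjusted p = 0.380). Library 2 was the lowest of all 6, so the groups overlapped. Col1a2 stood at 239.9, 224 and 218 in control and 858, 226 and 465 in Dsp_het (fold change 1.18, SE 0.41, edgeR adjusted p = 0.314). Col1a1 stood at 176, 168 and 179 in control and 597, 157 and 333 in Dsp_het (1.06, SE 0.41, edgeR adjusted p = 0.354). Col5a2 showed the same order with 44.7, 40.8 and 38.3 in control and 115, 34.8 and 67.3 in Dsp_het (0.81, SE 0.37). All 7 fibrillar chains tested had positive fold changes, with a median of 1.03, and 6 of the 7 overlapped between the groups. The exception was Col27a1, at 2.94, 3.05 and 3.40 in control and 5.29, 4.91 and 4.92 in Dsp_het, where Dsp_het library 2 too lay above every control library.

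The class make-up of the libraries differed as well. Fibroblast-like cells held 9.75, 9.59 and 9.40% in control and 33.5, 11.3 and 12.7% in Dsp_het, as percent of the kept UMIs. Epicardial-like cells held 3.18, 4.91 and 6.77% in control and 14.1, 9.29 and 17.8% in Dsp_het. Both were highest in Dsp_het library 1 or 3. In Dsp_het library 2 both shares were above every control library, while its Col3a1 (359) and Col1a1 (157) were below every control library. The part of these shares in the result was not tested. In sums over mixed cells, fewer cells of a type and less RNA per cell cannot be told apart. Without Dsp_het library 1 the median fold change of the chains was 0.45 over 29 chains tested, and those of Col3a1, Col1a2 and Col1a1 were 0.45, 0.60 and 0.49. Without Dsp_het library 2, edgeR called 7 chains higher (Col4a5, Col16a1, Col1a2, Col6a1, Col18a1, Col6a6 and Col6a5), where 1.21% of genes were called higher and 0.0523% lower.

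**Figure D4:**
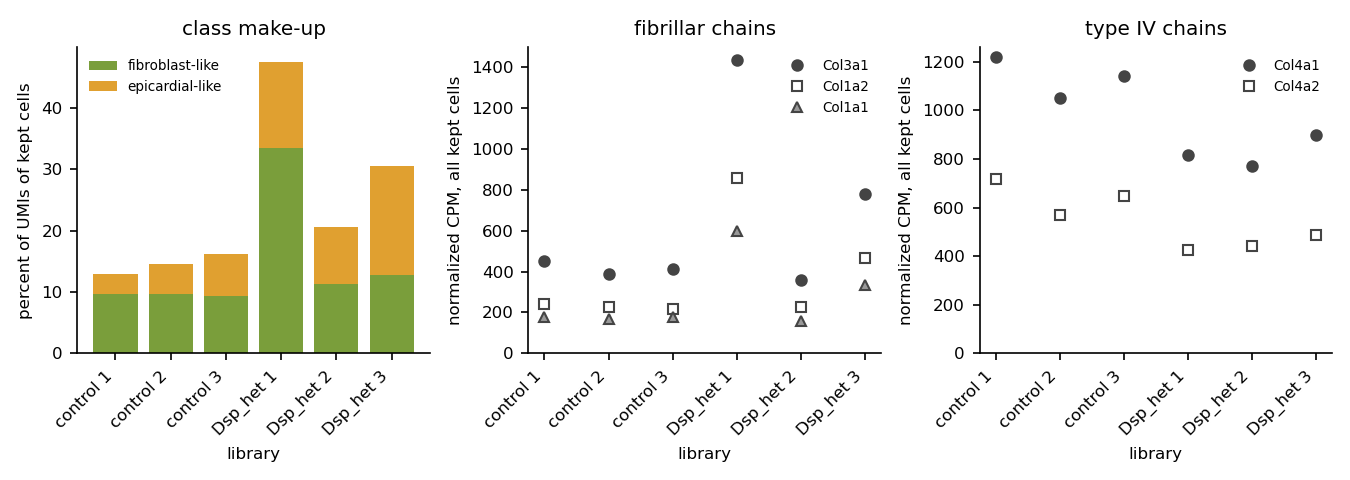
Left, percent of each library's kept UMIs in fibroblast-like (green) and epicardial-like cells (orange); middle and right, normalized CPM over all kept cells of 3 fibrillar and 2 type IV chains in the same libraries. Dsp_het libraries 1 and 3 have the largest shares of both classes and the highest fibrillar sums, Dsp_het library 2 lies close to the controls for these 3 fibrillar chains, and Col4a1 and Col4a2 are lower in all 3 Dsp_het libraries.

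Type IV chains went 2 ways. Col4a1 stood at 1221, 1052 and 1142 in control and 816, 770.5 and 899 in Dsp_het (fold change -0.46, SE 0.12, edgeR adjusted p = 0.212, DESeq2 adjusted p = 0.0113). Col4a2 stood at 717, 568 and 649 in control and 427, 440.4 and 488 in Dsp_het (-0.51, SE 0.13, edgeR adjusted p = 0.201, DESeq2 adjusted p = 0.00954). All Dsp_het libraries lay below all control libraries for both genes, as did 7.42% of all genes. Endothelial-like cells, their main source, held 78.4, 72.2 and 67.6% in control and 51.0, 72.7 and 54.9% in Dsp_het, as percent of the kept UMIs. The lowest Col4a1 of the 6 libraries was in Dsp_het library 2, whose endothelial-like share lay inside the control range. The lowest Col4a2 was in Dsp_het library 1 (427), whose endothelial-like share was the smallest (51.0%). The part of class make-up in these sums was not tested. Col4a3 stood at 5.59, 5.66 and 4.51 in control and 10.5, 8.10 and 8.50 in Dsp_het (0.79, SE 0.20, edgeR adjusted p = 0.204), with every Dsp_het library above every control library.

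Among the type VI chains, Col6a1 stood at 74.4, 74.8 and 78.3 in control and 225, 79.1 and 153 in Dsp_het (1.01, SE 0.33, edgeR adjusted p = 0.285). Col6a2 stood at 54.2, 55.8 and 63.8 in control and 181, 57.3 and 107 in Dsp_het (0.99, SE 0.36). Dsp_het library 2 again lay within a few CPM of the controls for both. Col14a1 was far above the other libraries in Dsp_het library 1 alone, with 59.7, 58.7 and 64.9 in control and 274, 71.9 and 70.6 in Dsp_het (1.19, SE 0.51), and without Dsp_het library 1 the fold change was 0.22. Col15a1 stood at 83.6, 80.3 and 89.5 in control and 160.1, 64.1 and 98.5 in Dsp_het (0.35, SE 0.29), and without that library it changed sign to -0.06. Col16a1 had the smallest p of the family, with 8.63, 6.96 and 9.72 in control and 20.7, 11.6 and 21.1 in Dsp_het (1.07, SE 0.25, unadjusted p = 0.00339, edgeR adjusted p = 0.193). Col4a5 and Col6a6, called by DESeq2, stood at 6.83, 7.54 and 7.50 in control and 23.7, 8.79 and 15.6 in Dsp_het and at 13.9, 15.5 and 10.8 in control and 52.8, 14.5 and 37.4 in Dsp_het, respectively. In all, 9 chains were higher in Dsp_het without overlap (Col6a1, Col14a1, Col8a1, Col6a3, Col16a1, Col4a5, Col4a3, Col27a1 and Col4a6), where 10.4% of all genes were, and 2 were lower.

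The lists around collagen gave 0 calls in edgeR over all kept cells. The 18 fibril-binding proteoglycans and glycoproteins tested were all positive with a median of 1.05, and 10 of 11 propeptide and crosslinking genes were positive with a median of 0.83. The medians were 0.17 for 22 folding genes, 0.11 for 11 receptors and 0.25 for 13 basement membrane partners.

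**Figure D5:**
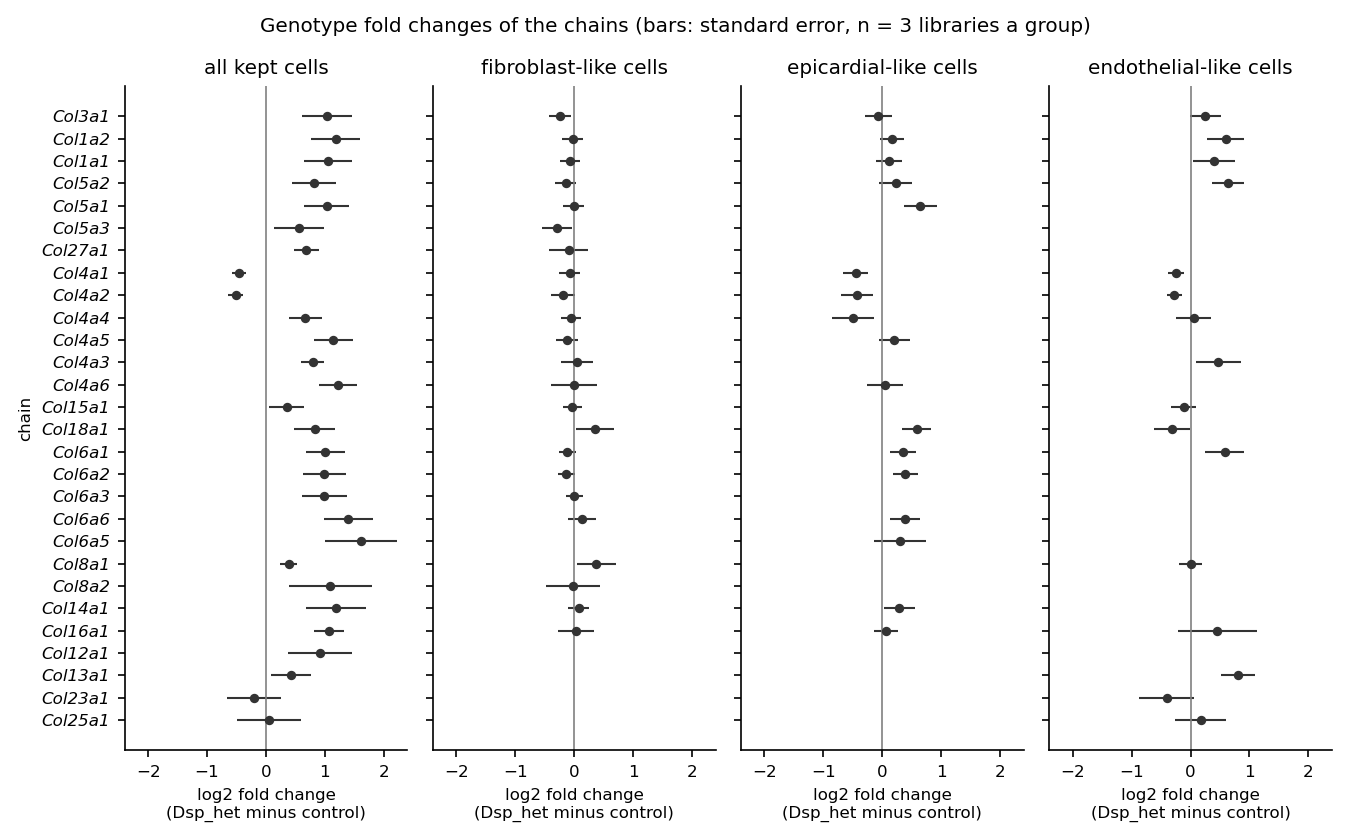
Log2 fold change (Dsp_het minus control, point) with its standard error (bar) for each chain tested over all kept cells and within fibroblast-like, epicardial-like and endothelial-like cells, n = 3 libraries a group. The points have a median of 0.95 over all kept cells and of -0.03 in fibroblast-like cells.

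Within fibroblast-like cells the chains did not differ detectably between the genotypes. Of 23 chains tested 0 were called by edgeR, where 0.012% of 8365 genes were called (1 gene), 0 had an unadjusted p under 0.05 (254 genes did), and DESeq2 called 0 chains. Fold changes were positive for 7 of 23 chains with a median of -0.03, against 0.001 over all genes. No chain separated the groups, where 4.05% of genes were higher and 3.78% lower without overlap. The cells summed per library numbered 117, 95 and 166 in control and 618, 115 and 90 in Dsp_het.

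Col3a1 stood at 3849.8, 3287 and 3030.3 in control and 3681, 1998 and 2929 in Dsp_het (-0.24, SE 0.19). Col1a2 stood at 2180.2, 1965 and 1577 in control and 2210.0, 1467 and 1929.8 in Dsp_het. Col1a1 stood at 1676, 1596 and 1511 in control and 1639.8, 1128 and 1776 in Dsp_het. Dsp_het library 2 was the lowest of the 6 for all 3 chains, and the other Dsp_het libraries lay within or close to the control range. Col5a2 stood at 318, 301 and 274 in control and 296, 197 and 311 in Dsp_het. Col5a1 stood at 191, 213 and 193 in control and 186, 155 and 252 in Dsp_het. Col5a3 stood at 75.9, 131 and 162 in control and 86.4, 79.5 and 139.5 in Dsp_het (-0.29, SE 0.26). These 3 type V chains overlapped between the groups, and the median over the 7 fibrillar chains tested was -0.09. Without Dsp_het library 2 the fold change of Col3a1 was -0.03 and without Dsp_het library 1 it was -0.46.

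Among the basement membrane chains, Col4a1 stood at 433, 513 and 555 in control and 438, 395 and 589.5 in Dsp_het. Col4a2 stood at 191, 245 and 267 in control and 192, 152 and 272 in Dsp_het. Col4a4 stood at 125, 116 and 104 in control and 104, 92.7 and 135 in Dsp_het. The groups overlapped for all 3. Col15a1 was alike, with 432, 403 and 462 in control and 386, 380.1 and 508 in Dsp_het. Col6a3, Col6a1 and Col6a2 had the smallest spread relative to their mean of the 16 chains at 50 CPM or more in this class. Col6a1 stood at 653, 649.8 and 587 in control and 569, 525 and 652 in Dsp_het. Col6a2 stood at 506, 521 and 517 in control and 472, 404 and 531 in Dsp_het. Col6a3 stood at 195, 164 and 192 in control and 181, 199 and 176 in Dsp_het. Col6a6 varied more, with 118, 124 and 68.2 in control and 118, 76.4 and 135 in Dsp_het, low in control library 3 and Dsp_het library 2. Both of these libraries were marked as female by Xist, and the part of sex in these values was not tested. Col14a1 stood at 577, 559 and 592 in control and 797, 541 and 473 in Dsp_het, where Dsp_het library 1 was the highest. Col8a1 had the largest positive fold change with 137, 84.4 and 168 in control and 88.0, 171 and 270.0 in Dsp_het (0.38, SE 0.33), and without Dsp_het library 3 it changed sign to -0.09.

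The 1 gene called in fibroblast-like cells belonged to the list of fibril-binding glycoproteins. Cilp, cartilage intermediate layer protein, rose from 29.0, 22.3 and 27.3 normalized CPM in control to 95.9, 89.7 and 74.7 in Dsp_het, a log2 fold change of 1.71 (SE 0.19, edgeR adjusted p = 0.00335). All Dsp_het libraries lay above all control libraries, in a class where no collagen chain did so. Without control library 3, edgeR called 0 genes in this class. The other 15 genes tested from that list were not called, and the list median was 0.08. The folding list had a median of -0.01 over 21 genes, and the propeptide and crosslinking list 0.10 over 10 genes, with 0 calls.

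In endothelial-like cells the 2 main type IV chains were lower in Dsp_het by less than the test could call. Col4a1 stood at 1448, 1276 and 1409.8 in control and 1244, 974 and 1269.7 in Dsp_het (-0.25, SE 0.13, unadjusted p = 0.0901, edgeR adjusted p = 1.000). Col4a2 stood at 855, 689 and 803 in control and 673, 564 and 706 in Dsp_het (-0.27, SE 0.13). The Col4a1 groups did not overlap, although control library 2 (1276) and Dsp_het library 3 were nearly equal, and those of Col4a2 did overlap. Dsp_het library 2 was the lowest for both. It was the lowest library in 7 of the 10 endothelial-like clusters held by all 6 libraries for Col4a1 and in 9 of 10 for Col4a2. The Dsp_het mean was the lower one in 9 of these clusters for Col4a1 and in 10 for Col4a2. All Dsp_het libraries lay below all control libraries in 1 cluster for Col4a1 and in 0 for Col4a2. Clusters of the same library are not independent of each other. Without Dsp_het library 2 the fold changes over the class were -0.13 and -0.18.

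Other chains in endothelial-like cells were low, and their values were higher in some Dsp_het libraries. Col13a1 stood at 9.68, 12.2 and 5.77 in control and 12.9, 12.3 and 22.2 in Dsp_het (0.80, SE 0.29, unadjusted p = 0.0174, edgeR adjusted p = 0.969). Its groups did not overlap, although control library 2 (12.2) and Dsp_het library 2 (12.3) were nearly equal, and without Dsp_het library 3 the fold change was 0.49. The Ccl21a cluster, in which Col13a1 was highest, held 103, 30 and 60 cells in control and 152, 61 and 92 cells in Dsp_het, and its part in the difference was not tested. Col5a2 stood at 13.3, 15.1 and 8.96 in control and 17.0, 12.7 and 27.99 in Dsp_het (0.63, SE 0.27), without Dsp_het library 3 at 0.28. Col15a1 stood at 48.4, 55.0 and 53.5 in control and 61.6, 29.0 and 53.9 in Dsp_het, lowest in Dsp_het library 2.

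Of 16 chains tested in endothelial-like cells 0 were called by edgeR, where 0% of 11319 genes were, and DESeq2 called 0 chains. 2 chains (Col13a1 and Col5a2) had an unadjusted p under 0.05, as did 501 genes, and 11 chains were positive with a median of 0.21. In these cells 1 chain was higher without overlap (Col13a1), where 4.25% of genes were, and 1 lower (Col4a1), where 4.06% were. All 4 fibrillar chains tested were positive, 3 of them with class averages below the summed fibroblast marker level given above. The fibroblast markers summed to 171, 224 and 252 CPM in control and 208, 148 and 249 CPM in Dsp_het in endothelial-like cells, and the epicardial markers to 62.4, 62.6 and 57.5 CPM in control and 96.2, 80.5 and 100.1 CPM in Dsp_het. The epicardial markers were higher in all 3 Dsp_het libraries, and their part in these fold changes was not tested.

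In epicardial-like cells 17 chains were tested and 0 were called by edgeR, where 0% of 8223 genes were, and DESeq2 called 0 chains. 13 chains were positive with a median of 0.20, 2 had an unadjusted p under 0.05 (262 genes did), and none separated the groups, where 4.23% of genes were higher and 4.11% lower without overlap. The median became 0.37 when Dsp_het library 2 was left out, 0.12 when control library 2 was, and 0.07 when library 3 of either group was. The cells summed per library numbered 45, 47 and 92 in control and 233, 77 and 92 in Dsp_het. The 3 smallest p-values were those of Col18a1, Col5a1 and Col4a1. Col18a1 stood at 69.3, 47.3 and 47.7 in control and 70.3, 61.5 and 103 in Dsp_het (0.58, SE 0.25, unadjusted p = 0.0336, edgeR adjusted p = 1.000), with control library 1 inside the Dsp_het range. Col5a1 stood at 18.9, 35.5 and 25.8 in control and 48.0, 33.3 and 41.1 in Dsp_het (0.64, SE 0.28). Col4a1 stood at 72.5, 62.1 and 110.2 in control and 63.1, 61.5 and 65.0 in Dsp_het (-0.45, SE 0.22), where control library 3 was the highest. Without that library the fold change was -0.09, and the endothelial markers were also highest there, at 654, 775 and 2051 CPM in control and 930.2, 1023 and 685 CPM in Dsp_het, and their part in the value was not tested.

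The abundant chains of epicardial-like cells overlapped between the genotypes. Col3a1 stood at 2574, 1691 and 1476 in control and 1602, 1459 and 2407 in Dsp_het. Col1a2 stood at 955, 837 and 759.8 in control and 931, 658 and 1262 in Dsp_het. Col1a1 stood at 498, 396 and 389 in control and 414, 327 and 642 in Dsp_het. Control library 1 and Dsp_het library 3 were the highest for Col3a1, and Dsp_het library 3 for both type I chains. Col6a1 stood at 265, 207 and 181 in control and 251, 199 and 366 in Dsp_het. Col6a2 stood at 154, 109 and 122 in control and 168, 123 and 206 in Dsp_het. Col6a6 stood at 88.2, 85.7 and 57.6 in control and 99.4, 64.0 and 117 in Dsp_het, lowest in the libraries marked as female by Xist. These 3 type VI chains were highest in Dsp_het library 3. Col6a5 spread most, with 78.8, 26.6 and 56.6 in control and 107, 17.9 and 63.7 in Dsp_het, highest in Dsp_het library 1. Col16a1 was steady with 75.6, 76.9 and 62.6 in control and 65.3, 84.5 and 72.3 in Dsp_het. Col14a1 stood at 59.9, 71.0 and 62.6 in control and 81.5, 109 and 50.4 in Dsp_het, highest in Dsp_het library 2. Col5a2 stood at 69.3, 35.5 and 44.7 in control and 62.0, 37.1 and 66.3 in Dsp_het, with both groups over the same range.

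Macrophage-like cells were compared over 3 control and 2 Dsp_het libraries, since Dsp_het library 1 held 2 such cells. Of 3 chains tested 0 were called by edgeR, where 0% of 5984 genes were, 1 had an unadjusted p under 0.05 (368 genes did), and DESeq2 called 0. Col4a1 stood at 18.5, 28.3 and 103 in control and 139 and 109 in Dsp_het libraries 2 and 3 (1.14, SE 0.48, edgeR adjusted p = 0.809). It was called without control library 3 (2.4, edgeR adjusted p = 0.0130), and the share of all genes called in that fit is not given here. The endothelial markers in the same cells summed to 1305, 974 and 2940 CPM in control and 5451 and 2675 CPM in Dsp_het, highest in the same library as Col4a1, and their part in the result was not tested. Col4a2 and Col14a1 had fold changes of 1.07 (SE 0.59) and -0.57 (SE 0.39).

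Whether the genotype difference itself varied between classes was tested as an interaction over fibroblast-like, endothelial-like and epicardial-like sums, with library as a block. Of 26 chains tested among 11133 genes, 0 were called for endothelial-like against fibroblast-like cells (0% of genes), 0 for epicardial-like against fibroblast-like cells (0%) and 0 for epicardial-like against endothelial-like cells (0.00898%). The smallest p was that of Col6a2, whose fold change in endothelial-like cells exceeded that in fibroblast-like cells by 1.41 (SE 0.37, unadjusted p = 0.00120, edgeR adjusted p = 0.562). The mean level of Col6a2 was 2.06 CPM in endothelial-like and 482 CPM in fibroblast-like cells. The former was 0.427% of the latter, close to the 0.374% of the summed fibroblast markers. Without the low-count filter Col6a2 was called (1.37, SE 0.34, edgeR adjusted p = 0.0221), where 81 of 19508 genes were called.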

How the data were processed

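The deposited files hold raw UMI counts per gene and barcode in 1 matrix of all 6 libraries, told apart by the barcode suffix; per the submitters' processing notes the build was GRCm38 and Seurat was used. For the aligner and the counter, the tool was not given in the sources used here. Members and gene lists were chosen with earlier results of these data known. Barcodes with at least 500 UMIs, at least 200 genes, at most 20% mitochondrial and at most 5% haemoglobin UMIs were kept (the last limit was chosen after seeing the data). Barcodes found in several libraries were kept only where at least 0.5 of their UMIs lay. Scrublet marked 43 barcodes (0.340%), so doublets were largely not removed. Scanpy 1.11.5 was used for clustering (2000 variable genes without collagens, 30 components, 15 neighbours, Leiden resolution 1.0, 20 clusters). A class name needed 3 markers among the 10 leading genes or a relative marker level of 0.25, a rule set after the clusters were seen, so classes are rebuilt names.

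Counts were summed per library and class (at least 20 cells) and tested with edgeR 4.0.16 in R 4.3.3 (quasi-likelihood, TMM, minimum count of 10, Benjamini-Hochberg over all genes tested, threshold 0.05), after a check on simulated data. DESeq2 1.42.0, other scaling, no filter, a replicate block, a sex term, other cell sets and leaving out each library were alternatives. Values are given by library for chains with a mean of at least 50 CPM, those called, or the 3 smallest p-values. From the lists, up to 4 genes with the highest mean and those called could be named.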

Additional observations from a re-analysis of the deposited data

How the results depend on the processing

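Counts of chains called over all kept cells rose from 0 with edgeR to 6 with DESeq2, and leaving out 1 library gave 0 to 7, the 7 without Dsp_het library 2. Without the low-count filter, edgeR called 1 chain in endothelial-like cells (Col13a1, adjusted p = 0.0222) and 1 in macrophage-like cells (Col4a1, adjusted p = 0.0292). The share of all genes called in those fits is not given here, so both calls stand without a background. In the difference between classes it called 1 chain (Col6a2, adjusted p = 0.0221), where 81 of 19508 genes were called for that pair of classes. In macrophage-like cells leaving out 1 library gave 0 to 1 chains. Of all counts of chains under the alternatives, 77 were on the same side and 6 were higher. Of the fold changes 345 kept direction and side of the threshold, 10 passed it and 2 turned: Col15a1 over all kept cells (-0.058 without Dsp_het library 1, range -0.058 to 0.61) and Col8a1 in fibroblast-like cells (-0.094 without Dsp_het library 3, range -0.094 to 0.73). The cause was not tested. The highest class was the same for 29 to 33 of 33 chains. Among those that changed, Col4a1 and Col4a2 were no longer highest in endothelial-like cells when control library 1, 2 or 3 was left out.

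With the replicate number as a block, 0 chains were called in each comparison. The block could rest only on shared numbers, since deviations of same-numbered libraries correlated at 0.017, -0.052 and -0.040, and the highest correlation was between control 2 and Dsp_het 3 (0.124). The block gave 19 calls among all genes in fibroblast-like cells (9 higher and 10 lower) against 1 without it, and 12 in endothelial-like cells (8 and 4) against 0.

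Over all genes, calls in all kept cells were 0 with edgeR, 339 higher and 37 lower with DESeq2, 60 and 1 without the filter, and 162 and 7 without Dsp_het library 2. Without the cluster led by Ccl11, an alternative chosen after seeing the data, 0 of the chains were called in fibroblast-like cells and the median was -0.05. Pericyte-like cells were not fitted, nor were macrophage-like cells under the stricter cell and doublet settings. Counting error limits chains under about 10 CPM, and 3 libraries a group limit every test of genotype.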

Other observations

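The classes can also be read from where a chain's UMIs lay. Of the Col1a1 UMIs in kept cells, 83.8% lay in fibroblast-like and 15% in epicardial-like cells, and of those of Col3a1 73.5% and 25.1%. Col6a3 and Col14a1 had 92.9% and 91.2% in fibroblast-like cells. Col4a1 and Col4a2 had 85.2% and 86.3% in endothelial-like cells, and Col13a1 93.4%. Col6a5 had 82.7% in epicardial-like cells, a class of 586 cells. Col18a1 was spread over epicardial-like (42.1%), endothelial-like (30.7%) and fibroblast-like cells (24%).

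The 11 collagen symbols under 20 UMIs were Col9a2 (17 UMIs), Col11a2 (16), Col7a1 (14), Col6a4 (13), Col17a1 (11), Col24a1 (9), Col19a1, Col2a1 and Col22a1 (1 each), and Col9a1 and Col10a1 (0). Most of these are known from cartilage or epithelium.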
